A study of Mus musculus with 16 samples.

Results

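The NF-kB subunits and their feedback inhibitors were followed in peritoneal B1a cells and splenic B cells of Sle2c1 congenic and control mice. The members are 10 genes, Rel, Rela, Relb, Nfkb1, Nfkb2, Nfkbia, Nfkbie, Nfkbiz, Tnfaip3 and Bcl3, chosen by gene symbol in the annotation of the array's probe sets. A total of 9 of the 10 members had probe sets of their own, 18 in number, among 15129 named genes tested. Nfkb1 is not analysed here. All 18 probe sets passed the filter on low values, so no member was lost to it.

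The 16 arrays fell into 4 groups of 4, all from mice 5 months old. Sle2c1 B1a and Sle2c1 Bs came from B6.Sle2c1 mice, which carry a congenic segment of NZM2410 origin with the cell cycle inhibitor gene Cdkn2c, and B6 B1a and B6 Bs came from C57BL/6 mice. B1a cells are CD5-bearing B cells of the peritoneal cavity. They were cultured for 2 h in PBS with 10% FBS to let macrophages adhere, depleted with Thy1.2 and CD3ε antibodies and then selected on CD5, which the labels put at 80% B220int CD5+ cells. Bs cells were CD43- spleen cells, over 90% B220hi, and had no such culture, so that cell type and culture cannot be told apart in any comparison of B1a with Bs. The labels do not give the sex of the mice or how many mice made up an array, and p-values measure the spread between these arrays only.

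NF-kB is a family of dimeric transcription factors that B cells use downstream of the B cell receptor, CD40, Toll-like receptors and the BAFF receptor. The Rel, Rela and Relb proteins carry transactivation domains, while Nfkb1 and Nfkb2 encode precursors that are processed to DNA-binding subunits. In resting cells the dimers are held in the cytoplasm by IkB proteins such as the products of Nfkbia and Nfkbie, which are degraded on signalling and made again as NF-kB target genes. Tnfaip3 encodes A20, an enzyme that edits ubiquitin chains and shuts the signal off. Nfkbiz and Bcl3 encode nuclear IkB proteins that act on DNA-bound dimers.

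Values are in units of the score the authors deposited, whose log base and centring are not stated, so that differences are given in these units and not as folds. A score below 0.495 was treated as carrying no level and set to 0.495, called the floor here. The floor is the median over arrays of their 40th percentile, a choice of the analysis and not a detection limit. A gene was called higher or lower where limma gave a Benjamini-Hochberg adjusted p under 0.05 over all 22727 features. Median scores of the arrays lay between 0.68 and 1.12. Replicate 4 of Sle2c1 B1a and replicates 1 and 3 of B6 Bs stood apart from their groups on the principal components. Results that change without replicate 4 of Sle2c1 B1a, replicates 1 and 3 of B6 Bs and replicate 3 of Sle2c1 Bs are given both ways below.

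The labelled cell types were checked against marker genes. The 8 B1a markers tested averaged 1.61 to 1.97 on the Sle2c1 B1a arrays and 1.83 to 1.86 on the B6 B1a arrays, against 0.928 to 0.992 on Sle2c1 Bs and 0.897 to 1.11 on B6 Bs arrays. Cd5 was at the floor on all 8 Bs arrays. In B1a cells it scored 1.33, 1.22, 1.12 and 0.64 in B6 mice. In Sle2c1 B1a it scored 0.77 and 1.22 on replicates 1 and 2 and was at the floor on replicates 3 and 4. Its difference of B1a from Bs was called in B6 mice (0.58, adjusted p = 0.0164) and not in Sle2c1 mice (0.25, adjusted p = 0.253). The 6 B cell markers averaged 2.66 to 2.80 in Sle2c1 B1a and 2.70 to 2.79 in B6 B1a, below the 2.97 to 3.03 of Sle2c1 Bs and the 2.92 to 3.12 of B6 Bs. Macrophage markers (15 tested) averaged 0.939 to 0.995 on the Sle2c1 B1a arrays and 1.78, 1.23, 1.79 and 2.20 on replicates 1 to 4 of B6 B1a, against 0.987 to 1.14 on Sle2c1 Bs and 1.21 to 1.26 on B6 Bs. Replicates 1, 3 and 4 of B6 B1a lay above all other arrays and replicate 2 within the range of B6 Bs. In Sle2c1 B1a, 6 macrophage markers (Csf1r, Apoe, C1qb, C1qc, Vsig4 and Timd4) were at the floor on all 4 arrays, whereas Cd14 (2.69, 2.66, 2.77 and 2.98) was well above it. The 7 mast cell markers averaged 0.979 to 1.55 in Sle2c1 B1a and 1.44 to 1.84 in B6 B1a, above 0.546 to 0.709 in Sle2c1 Bs and 0.539 to 0.639 in B6 Bs. The 9 T cell markers averaged 0.913 to 1.52 in Sle2c1 B1a and 1.43 to 1.68 in B6 B1a, against 1.10 to 1.23 in Sle2c1 Bs and 1.21 to 1.29 in B6 Bs. In bulk samples such as these, fewer cells of a type and less RNA per cell cannot be told apart.

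Between the cell types 2 members were called in both strains. Bcl3 and Rela were higher in B1a than in Bs cells of Sle2c1 mice and of B6 mice, on every array. In Sle2c1 mice, 3 of 9 members were higher in B1a cells (Bcl3, Rela and Rel) where 11% of all features were called higher, and 1 was lower (Nfkb2) where 14.7% were called lower. In B6 mice, 3 of 9 members were higher (Bcl3, Rela and Nfkbiz) where 9.02% of all features were called higher, and 0 were lower where 12.2% were. The median difference of the 9 members was 0.13 in Sle2c1 and 0.24 in B6 mice, beside -0.045 and -0.05 over all features.

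Between the strains no member passed. In B1a cells 0 of 9 members were called in Sle2c1 against B6, where 3.38% of all features were, and 2 members (Nfkb2 and Nfkbiz, both lower) had an unadjusted p under 0.05, a level that 17.2% of all features reached. In Bs cells 0 of 9 were called where 0.154% of all features were, and 0 had an unadjusted p under 0.05 where 3.42% did. The difference of the 2 strain differences (interaction) was called for 0 of 9 members, where 0.431% of all features were called, and 0 had an unadjusted p under 0.05 where 7.42% did. By the probe sets that stand for the genes, arrays of the 2 strains overlapped for all 9 members in both cell types. Groups that do not overlap made up 4.23% (higher) and 4.15% (lower) of all features in B1a cells. In Bs cells these shares were 1.19% and 1.15%. With shares this low, 0 of 9 does not set the members apart from all features. Among the other member probe sets, Nfkbia 1420088_at and Nfkbiz 1457404_at did not overlap in B1a cells.

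**Figure D1:**
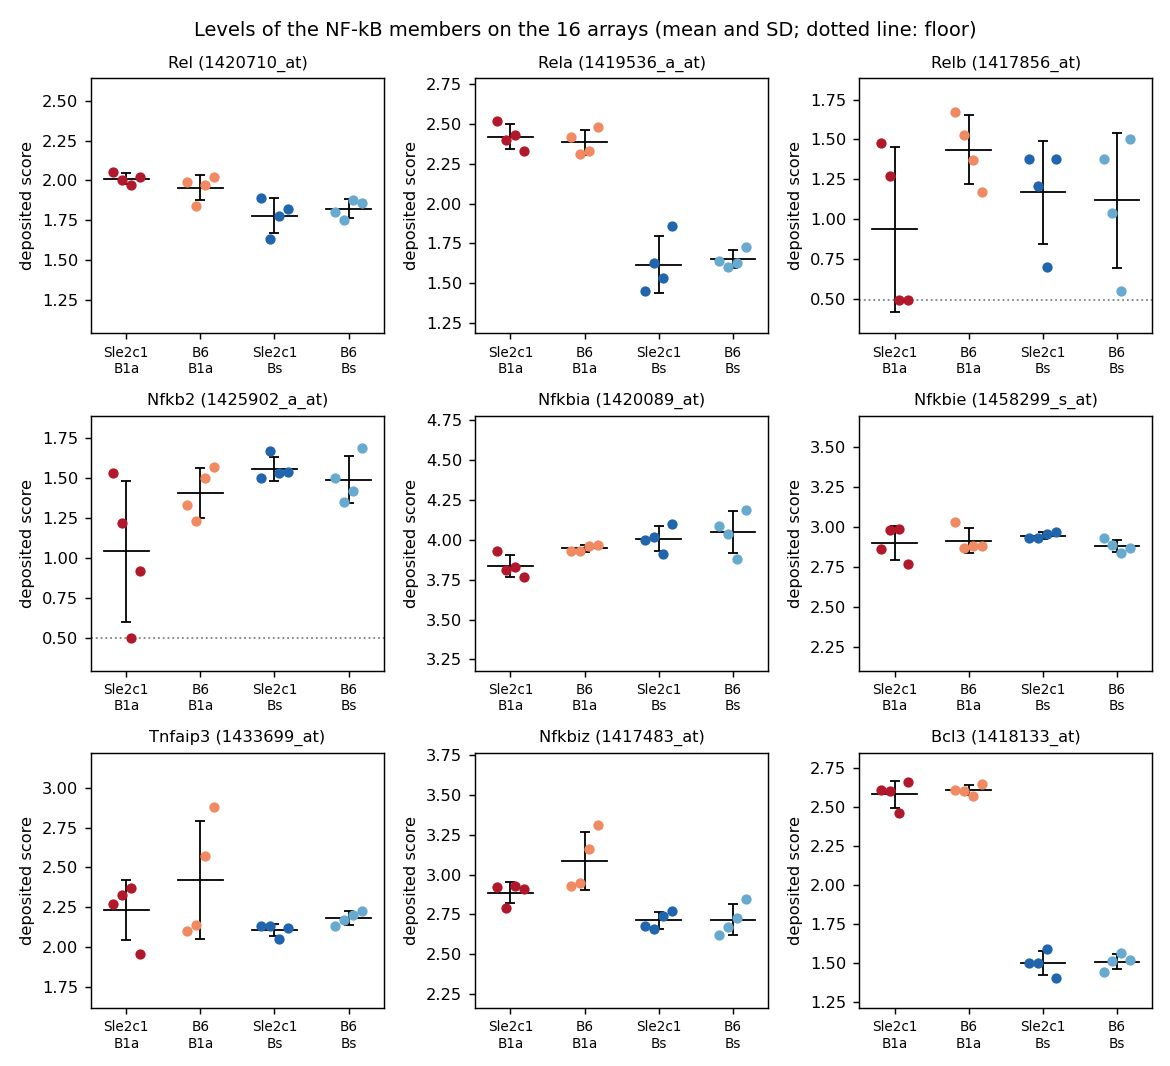
Deposited score (y axis, one scale range per gene of equal length) of the probe set that stands for each of the 9 members on the 4 arrays of each group (points), with the mean (line) and SD (bar). Rela is at 2.31 or above on all 8 B1a arrays and at 1.86 or below on all 8 Bs arrays, Bcl3 at 2.46 or above and 1.59 or below, and the 2 strains overlap within each cell type for all 9 members.

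The plot of levels by array shows the 9 members side by side. Bcl3 and Rela have the widest gaps between the cell types, and Relb and Nfkb2 have arrays at the floor in Sle2c1 B1a.

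Promoter sequences bear on the feedback, because several of these genes are known NF-kB targets themselves. RefSeq windows of 300 bases (250 before and 50 after the transcript start, build GRCm38.p6) were found for 7 members, 10 windows in all. They were searched on both strands for the 10-base kappaB consensus, the motif NF-kB dimers bind. A match lay in windows of 6 of the 7 members and in 8 of the 10 windows (80.0%), against 5.14% of 27025 genes and 4.51% of their 32851 windows. A pair of Nfkb2 windows overlap and share a match, so that it is counted for both. Relb and Nfkbiz are named only. A match is a description of the sequence and not a site shown to be bound in these cells. The windows of Bcl3 and Rela are shown because these genes were called higher in B1a cells in both strains. That of Rel is shown because it was called higher in Sle2c1 mice, and that of Nfkbia as the classical feedback gene. They are written 5′ to 3′ on the strand of the gene, with capitals where the motif matches.
Bcl3: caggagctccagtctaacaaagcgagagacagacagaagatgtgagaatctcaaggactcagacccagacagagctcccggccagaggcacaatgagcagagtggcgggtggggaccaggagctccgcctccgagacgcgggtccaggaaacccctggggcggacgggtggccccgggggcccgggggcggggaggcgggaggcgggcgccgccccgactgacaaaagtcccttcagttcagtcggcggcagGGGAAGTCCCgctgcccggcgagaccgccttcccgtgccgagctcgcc
Rela: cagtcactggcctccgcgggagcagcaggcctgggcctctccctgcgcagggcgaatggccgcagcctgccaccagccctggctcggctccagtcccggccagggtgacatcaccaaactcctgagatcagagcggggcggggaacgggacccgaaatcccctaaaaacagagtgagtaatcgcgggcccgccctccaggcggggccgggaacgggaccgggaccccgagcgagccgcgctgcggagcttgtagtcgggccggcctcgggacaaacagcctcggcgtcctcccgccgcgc
Rel: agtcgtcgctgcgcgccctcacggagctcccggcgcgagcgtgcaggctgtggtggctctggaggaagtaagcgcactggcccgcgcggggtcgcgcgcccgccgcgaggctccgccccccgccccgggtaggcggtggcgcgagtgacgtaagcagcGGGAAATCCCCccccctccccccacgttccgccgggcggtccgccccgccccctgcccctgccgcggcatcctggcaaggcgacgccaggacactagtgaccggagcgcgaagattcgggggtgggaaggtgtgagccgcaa
Nfkbia: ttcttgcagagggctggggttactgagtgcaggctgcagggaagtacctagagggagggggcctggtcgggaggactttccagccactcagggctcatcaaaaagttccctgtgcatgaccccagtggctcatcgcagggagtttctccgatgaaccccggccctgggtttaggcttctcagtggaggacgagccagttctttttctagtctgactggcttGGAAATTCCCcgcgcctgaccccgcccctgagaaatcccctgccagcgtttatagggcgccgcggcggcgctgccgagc
The Bcl3 window (chr7:19822706-19823005, minus strand) has its match at bases 253 to 262, just after the start. The Rel window (chr11:23770920-23771219, minus strand) has overlapping matches that together span bases 159 to 169. The Nfkbia window (chr12:55492598-55492897, minus strand) has its match at bases 222 to 231. No match was found in the Rela window (chr19:5637291-5637590, plus strand), which says only that these letters are not in it.

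Among the transactivating subunits, Rela, which encodes p65, differed most between the cell types. It scored 2.52, 2.40, 2.43 and 2.33 in Sle2c1 B1a and 1.45, 1.63, 1.53 and 1.86 in Sle2c1 Bs cells. In B6 mice it scored 2.42, 2.31, 2.33 and 2.48 in B1a and 1.64, 1.60, 1.63 and 1.73 in Bs cells. The lowest B1a array of either strain lay above the highest Bs array, replicate 4 of Sle2c1 Bs. The difference of B1a from Bs was 0.80 (SE 0.0814, adjusted p = 5.38e-06) in Sle2c1 and 0.74 (SE 0.0814, adjusted p = 1.59e-05) in B6 mice by limma, and an exact permutation test of 4 against 4 arrays gave 0.0286 in each strain, the smallest p it can give. The strain difference was 0.04 in B1a cells (95% interval -0.14 to 0.21, adjusted p = 0.859) and -0.03 in Bs cells (-0.21 to 0.14, adjusted p = 1).

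Rel encodes c-Rel, the subunit with a large role in B cell proliferation. It scored 2.05, 2.00, 1.97 and 2.02 in Sle2c1 B1a, against 1.89, 1.63, 1.78 and 1.82 in Sle2c1 Bs cells. B6 arrays gave 1.99, 1.84, 1.97 and 2.02 in B1a, against 1.80, 1.75, 1.88 and 1.86 in Bs cells. All Sle2c1 B1a arrays lay above the Sle2c1 Bs arrays, whereas replicate 2 of B6 B1a fell among the B6 Bs arrays. The difference of B1a from Bs was called in Sle2c1 mice, at 0.23 (SE 0.0635, adjusted p = 0.0163), and not in B6 mice, at 0.13 (95% interval -0.0036 to 0.27, adjusted p = 0.154). The Sle2c1 call was lost without replicate 2 of Sle2c1 Bs (0.18, adjusted p = 0.0579) and without the 4 arrays in doubt (adjusted p = 0.0577). That the 2 strains differ in it is not shown, since the interaction was 0.10 (adjusted p = 0.943).

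Relb encodes the partner of the processed Nfkb2 product in the alternative pathway that BAFF and CD40 drive. It scored 1.48 and 1.27 on replicates 1 and 2 of Sle2c1 B1a and was at the floor on replicates 3 and 4, against 1.67, 1.53, 1.37 and 1.17 in B6 B1a. Bs cells gave 1.38, 1.21, 0.70 and 1.38 in Sle2c1 and 1.38, 1.04, 0.55 and 1.50 in B6 mice. No comparison passed, and the strain difference in B1a cells had an interval from -1.05 to 0.049 (difference -0.50, adjusted p = 0.34).

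Nfkb2 encodes p100, which is both a precursor of the p52 subunit and an inhibitor of Relb dimers. The probe set 1425902_a_at scored 1.53, 1.22 and 0.92 on replicates 1, 2 and 4 of Sle2c1 B1a and was at the floor on replicate 3, against 1.50, 1.67, 1.53 and 1.54 in Sle2c1 Bs. B6 mice had 1.33, 1.23, 1.50 and 1.57 in B1a and 1.50, 1.35, 1.42 and 1.69 in Bs cells. The Sle2c1 groups overlapped, because replicate 1 of Sle2c1 B1a was as high as the Bs arrays. The Sle2c1 difference of -0.52 was called (SE 0.167, adjusted p = 0.035), and the call depended on single arrays. Without the floored replicate 3 of Sle2c1 B1a it was -0.34 (adjusted p = 0.0828), without replicate 4 the adjusted p was 0.0687, and without any one of the 4 Sle2c1 Bs arrays it was 0.0575 to 0.0888. The call was also lost in an exact permutation test (p = 0.0857), without the 4 arrays in doubt (adjusted p = 0.127) and with replicate number as a block inside each cell type (adjusted p = 0.0681). It was lost as well with the mean of the probe sets (adjusted p = 0.19), without the floor (0.245), with only the 8 arrays compared (0.112) and with quantile normalization (0.0677), and held in 11 of 24 alternatives. In B6 mice the difference was -0.08 (adjusted p = 0.771). The second Nfkb2 probe set, 1429128_x_at, was at the floor on 2 arrays of Sle2c1 B1a, 2 of B6 B1a, 1 of Sle2c1 Bs and 3 of B6 Bs and gave no call.

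**Figure D2:**
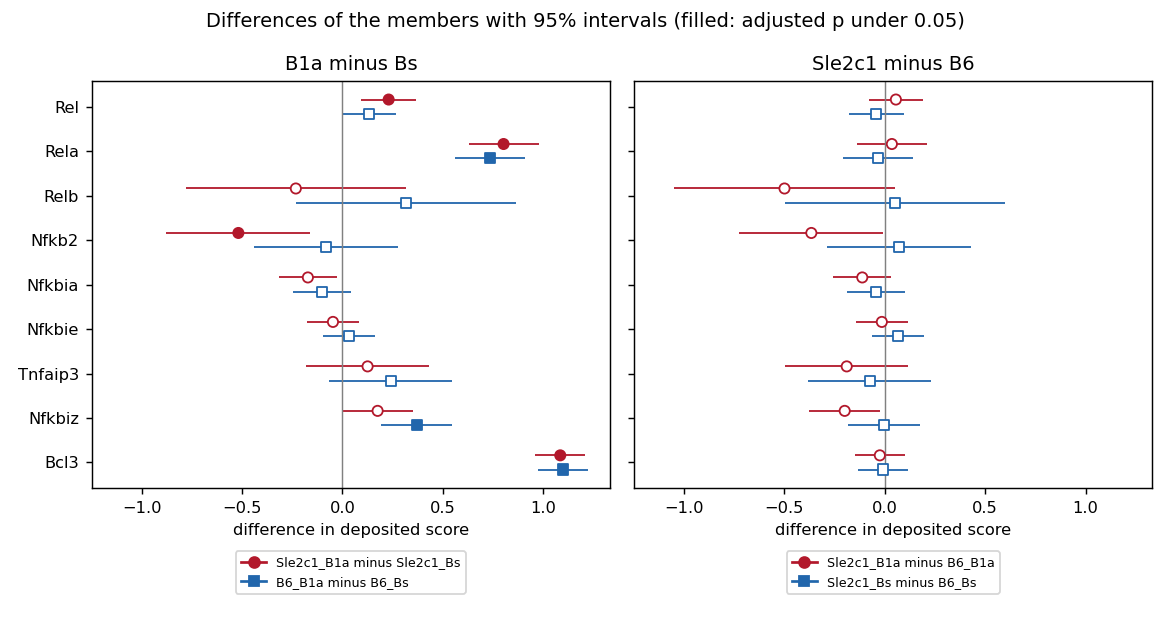
Difference in deposited score (x axis) for each member with its 95% interval, B1a minus Bs on the left and Sle2c1 minus B6 on the right, in the 2 colours named in each legend, with filled points where the adjusted p was under 0.05. Filled points stand only on the left: Bcl3 and Rela in both strains, Rel and Nfkb2 in Sle2c1 and Nfkbiz in B6 mice.

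The plot of differences shows how unequal the precision was. In B1a cells the interval of the strain difference ran from -0.15 to 0.0997 for Bcl3 and from -0.14 to 0.11 for Nfkbie, whereas that of Relb ran from -1.05 to 0.049.

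Bcl3, the nuclear IkB protein that binds p50 and p52 homodimers, had the largest difference of the 9 members. It scored 2.61, 2.60, 2.46 and 2.66 in Sle2c1 B1a, against 1.50, 1.50, 1.59 and 1.40 in Sle2c1 Bs cells. B6 mice gave 2.61, 2.60, 2.57 and 2.65 in B1a, against 1.44, 1.51, 1.56 and 1.52 in Bs cells. In means the order was B6 B1a (2.61 ± 0.033), Sle2c1 B1a (2.58 ± 0.0858), B6 Bs (1.51 ± 0.0499) and Sle2c1 Bs (1.50 ± 0.0776; SD, n = 4 each), and the neighbours of one cell type overlapped. The B1a difference was 1.09 in Sle2c1 mice (95% interval 0.96 to 1.21, adjusted p = 7.41e-09) and 1.10 in B6 mice (0.98 to 1.22, adjusted p = 6.89e-09). It ranked 716th by size of 22727 features in Sle2c1 and 613th in B6 mice. The strain difference was -0.025 in B1a cells (-0.15 to 0.0997, adjusted p = 0.859) and -0.01 in Bs cells (-0.13 to 0.11, adjusted p = 1).

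The interaction was -0.015 for Bcl3 (95% interval -0.19 to 0.16, adjusted p = 0.997) and 0.07 for Rela (-0.18 to 0.31, adjusted p = 0.983). Markers of other cells also differed between B1a and Bs cells, in both directions. Of the 15 macrophage markers, 2 were higher and 5 lower in B1a cells of Sle2c1 mice (11% and 14.7% of all features), and 9 higher and 2 lower in those of B6 mice (9.02% and 12.2%). Those higher in Sle2c1 mice were Cd14, at the floor on all Sle2c1 Bs arrays and so at least 2.28 higher (adjusted p = 8.58e-08), and Cd68 (0.83, adjusted p = 0.000238). The 5 lower in Sle2c1 mice were Csf1r, Mertk, Lyz2, Fn1 and Timd4. Of the 7 mast cell markers, 3 were higher and 0 lower in Sle2c1 mice and 6 higher and 0 lower in B6 mice. Of the 9 T cell markers, 1 was higher and 2 lower in Sle2c1 mice and 3 higher and 2 lower in B6 mice. Of the 5 NK cell markers, 0 were higher and 3 lower in each strain. Of the 5 dendritic cell markers, 0 were higher and 1 lower in each strain. Of the 3 erythroid markers, 0 were higher, and 1 was lower in Sle2c1 and 2 in B6 mice. Of the 6 neutrophil markers, 2 were higher in each strain, and 0 were lower in Sle2c1 and 1 in B6 mice. The part of these cells in the Bcl3 and Rela differences was not tested.

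Nfkbiz encodes IkBζ, a nuclear inducer of secondary response genes such as Il6. Its probe set 1417483_at scored 2.92, 2.79, 2.93 and 2.91 in Sle2c1 B1a and 2.93, 2.95, 3.16 and 3.31 in B6 B1a cells. Bs cells gave 2.68, 2.66, 2.74 and 2.77 in Sle2c1 and 2.62, 2.67, 2.73 and 2.85 in B6 mice. Both B1a groups lay above the Bs group of their strain, and replicates 3 and 4 of B6 B1a were the highest of all 16. The difference of B1a from Bs was called in B6 mice, at 0.37 (SE 0.0829, adjusted p = 0.00579), and not in Sle2c1 mice, at 0.18 (95% interval -0.0029 to 0.35, adjusted p = 0.136). In Sle2c1 mice the direction depends on the probe set: 1457404_at, also well above the floor, gave -0.11 (adjusted p = 0.18 over all probe sets). In B6 mice all 3 probe sets had positive differences, with 0.045 for 1457404_at (adjusted p = 0.643). The remaining one, 1448728_a_at, is near the floor. It gave 0.62 in B6 mice (adjusted p = 0.0111) and 0.235 in Sle2c1 mice (adjusted p = 0.282). An exact permutation test of 1417483_at alone gave 0.0286 in each strain. Without the 4 arrays in doubt the B6 call was lost (0.33, adjusted p = 0.0584). Members whose groups did not overlap were 4 of 9 higher and 0 lower in Sle2c1 mice (10% and 15.5% of all features) and 3 of 9 higher and 0 lower in B6 mice (10.7% and 11.6%).

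In B1a cells the Nfkbiz difference of Sle2c1 from B6 mice was -0.20 (95% interval -0.38 to -0.022, adjusted p = 0.233). The probe set 1457404_at gave -0.19 without overlap (adjusted p = 0.10 over all probe sets), and 1448728_a_at, which is near the floor, gave -0.52 (adjusted p = 0.0842). The mean of the 3 probe sets was called lower in Sle2c1, at -0.30 (adjusted p = 0.0433). The interaction of the probe set that stands for the gene was -0.195 (adjusted p = 0.824). The 2 arrays highest in that probe set, replicates 3 and 4 of B6 B1a, had macrophage marker averages of 1.79 and 2.20, and replicates 1 and 2 had 1.78 and 1.23. The part of macrophage RNA in these values was not tested.

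Tnfaip3, the gene for A20, varied widely within B6 B1a. It scored 2.27, 2.33, 2.37 and 1.96 in Sle2c1 B1a and 2.10, 2.14, 2.57 and 2.88 in B6 B1a, against 2.13, 2.13, 2.05 and 2.12 in Sle2c1 Bs and 2.13, 2.17, 2.20 and 2.23 in B6 Bs. The SD was 0.186 in Sle2c1 B1a and 0.372 in B6 B1a, against 0.0386 in Sle2c1 Bs and 0.0427 in B6 Bs. By the probe sets that stand for these genes, replicates 3 and 4 of B6 B1a, the arrays highest in Nfkbiz, were also the highest in Tnfaip3. No comparison passed, with differences of B1a from Bs of 0.13 in Sle2c1 (95% interval -0.18 to 0.43, adjusted p = 0.55) and 0.24 in B6 mice (-0.067 to 0.55, adjusted p = 0.254). The other Tnfaip3 probe set, 1450829_at, was at the floor on 3 of 4 Sle2c1 B1a arrays and on all B6 Bs arrays. In B6 B1a it was at the floor on replicates 3 and 4 and scored 0.77 and 0.79 on replicates 1 and 2. Nfkbiz 1457404_at scored 2.94, 2.87, 3.01 and 2.88 on replicates 1 to 4 of B6 B1a, and Nfkbiz 1448728_a_at 1.28, 1.05, 1.38 and 1.28. The high values of both replicates 3 and 4 thus rest on 1433699_at and 1417483_at.

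Nfkbia, the gene for IkBα, is the member with the most probe sets, and they did not run one way. The probe set that stands for the gene, 1420089_at, scored 3.93, 3.81, 3.83 and 3.77 in Sle2c1 B1a and 4.00, 4.02, 3.91 and 4.10 in Sle2c1 Bs, against 3.93, 3.93, 3.96 and 3.97 in B6 B1a and 4.09, 4.04, 3.88 and 4.19 in B6 Bs. Its groups overlapped, and its differences of -0.17 in Sle2c1 (adjusted p = 0.075) and -0.10 in B6 mice (adjusted p = 0.304) did not pass, although the first did with replicate number as a block (inside each cell type) (adjusted p = 0.0411). With each probe set tested on its own, 1420088_at was lower in B1a cells of Sle2c1 mice (-0.18, adjusted p = 0.0379), while 1448306_at was higher in B1a cells of B6 mice (0.31, adjusted p = 0.00915) and so was 1449731_s_at (0.20, adjusted p = 0.0205). The direction of Nfkbia between the cell types therefore depends on the probe set. Between the strains all 5 probe sets had negative differences in B1a cells, from -0.19 to -0.0875, and 0 of the 5 passed.

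Nfkbie encodes IkBε, an inhibitor that mainly holds c-Rel and p65 in B cells. The probe set 1458299_s_at scored 2.86, 2.98, 2.99 and 2.77 in Sle2c1 B1a and 3.03, 2.87, 2.88 and 2.88 in B6 B1a, against 2.93, 2.93, 2.96 and 2.97 in Sle2c1 Bs and 2.93, 2.89, 2.84 and 2.87 in B6 Bs. The 4 groups overlapped in each comparison. The difference of B1a from Bs was -0.05 in Sle2c1 (95% interval -0.18 to 0.081, adjusted p = 0.59) and 0.03 in B6 mice (-0.096 to 0.16, adjusted p = 0.744), intervals that hold neither the Bcl3 nor the Rela difference of their strain.

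**Figure D3:**
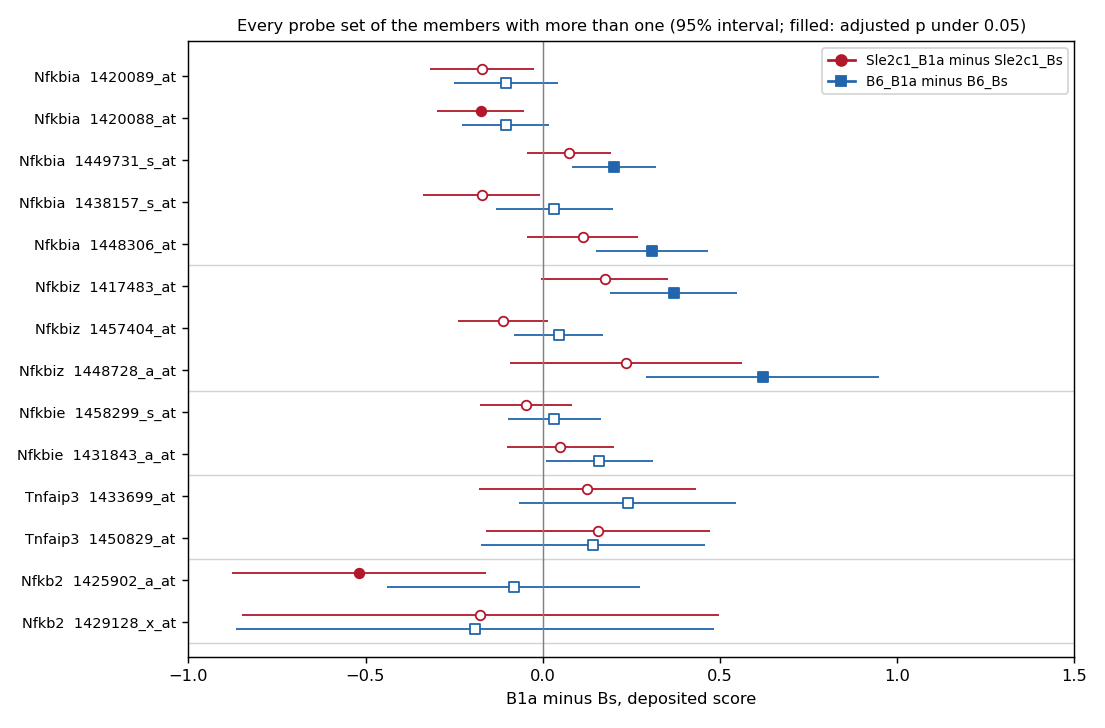
Difference of B1a from Bs in deposited score (x axis, 95% interval) for every probe set of the 5 members that have more than one, in Sle2c1 mice (circles) and B6 mice (squares), filled where the adjusted p over all probe sets was under 0.05. The 5 Nfkbia probe sets lie on both sides of 0, and 2 of the 3 Nfkbiz probe sets are filled in B6 mice.

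The plot by probe set shows that the Nfkbia sets split in both strains. Over all 18 member probe sets, 3 were called higher and 2 lower in B1a cells of Sle2c1 mice (11.1% and 13.7% of all probe sets), and 6 higher and 0 lower in B6 mice (9.21% and 10.7%). In Sle2c1 against B6, 0 of 18 were called in B1a cells and 0 of 18 in Bs cells (3.51% and 0.131% of all probe sets). Differences were negative for 14 of 18 in B1a and 9 of 18 in Bs cells. The 18 probe sets come from 9 members, so that their signs are not independent. No share of negative differences over all probe sets is given beside these counts.

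The genes whose scores ran closest to those of each called member over the 16 arrays were taken by the root mean square distance of centred scores among 15128 other genes. Bcl3 was followed most closely by Rbm47 (0.0727), Fam174a (0.084) and Sertad2 (0.0863). Rela was followed by Sh3rf1 (0.089), Rab5a (0.0922) and Egr2 (0.0938), the last an immediate early transcription factor. Rel was followed by Gcfc2 (0.0585), Taldo1 (0.0645) and Glipr1 (0.0659). The nearest genes to Nfkbiz were Npepps (0.098), Vim (0.098) and Smpdl3a (0.0995), and those to Nfkb2 were Pus10 (0.138), Ptpre (0.15) and Cep83os (0.159). The members' own SD over the 16 arrays was 0.567 for Bcl3, 0.409 for Rela, 0.118 for Rel, 0.187 for Nfkbiz and 0.303 for Nfkb2. Distances are not scaled to this SD, so they do not show which member was followed most closely.

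Of 21 tested upstream genes (the IKK complex, its adaptors and ligases), 3 were higher and 5 lower in B1a cells of Sle2c1 mice, where 11% and 14.7% of all features were. In B6 mice 3 were higher and 3 lower, where 9.02% and 12.2% of all features were. Their medians were -0.0025 in Sle2c1 and 0.05 in B6 mice. Myd88, the adaptor of Toll-like receptors, was higher by 0.50 in Sle2c1 (adjusted p = 0.000641) and by 0.74 in B6 mice (adjusted p = 2.51e-05). Traf5, an adaptor of CD40 and related receptors, was lower in B1a cells, at -1.32 in Sle2c1 (adjusted p = 4.9e-05) and -0.66 in B6 mice (adjusted p = 0.0124). Bcl10, which links the B cell receptor to IKK, was lower at -0.28 in Sle2c1 (adjusted p = 0.0011) and -0.20 in B6 mice (adjusted p = 0.0157). Ikbkg, the regulatory IKK subunit NEMO, was higher and Ikbkb, a catalytic one, lower in Sle2c1 mice, at 0.20 (adjusted p = 0.0114) and -0.22 (adjusted p = 0.0148).

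Of 14 further inhibitors, 3 were higher and 3 lower in B1a cells of Sle2c1 mice (11% and 14.7% of all features), and 3 higher and 2 lower in those of B6 mice (9.02% and 12.2%). Tnip2, an A20-binding inhibitor, was higher by 0.85 in Sle2c1 (adjusted p = 0.0012) and 0.83 in B6 mice (adjusted p = 0.00188), with 2 of 4 Bs arrays of each strain at the floor, so that these sizes depend on it. Nfkbid, which encodes the nuclear protein IkBNS, was higher by 0.28 in Sle2c1 (adjusted p = 0.0121) and 0.37 in B6 mice (adjusted p = 0.0029). Otulin, which removes linear ubiquitin chains, was higher by 0.39 in Sle2c1 (adjusted p = 0.00046) and 0.40 in B6 mice (adjusted p = 0.000511). Peli1 and Tax1bp1 were lower in both strains, at -0.50 and -0.28 in Sle2c1 and -0.44 and -0.27 in B6 mice. Between the strains 0 of the 21 upstream genes and 0 of the 14 inhibitors passed in either cell type.

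Textbook NF-kB target genes were higher in B1a cells more often than lower. Of 35 tested, 14 were higher and 5 lower in Sle2c1 mice (median 0.17), where 11% and 14.7% of all features were (median -0.045). In B6 mice 19 were higher and 2 lower (median 0.31), where 9.02% and 12.2% of all features were (median -0.05). The chemokine gene Cxcl2 scored 3.48, 3.37, 3.57 and 3.57 in Sle2c1 B1a, against 0.95, 0.70 and 1.04 on replicates 2, 3 and 4 of Sle2c1 Bs and the floor on replicate 1. In B6 mice it scored 3.16, 3.13, 3.74 and 3.82 in B1a, against 0.51 and 0.68 on replicates 1 and 4 of Bs and the floor on replicates 2 and 3. The difference was 2.70 in Sle2c1 (adjusted p = 1.52e-08) and 2.92 in B6 mice (adjusted p = 8.02e-09), sizes that depend on the floor. Ier3, an early response gene, was at the floor on all Sle2c1 Bs arrays, so its difference there of at least 1.95 is a lower bound. Ltb and Slamf1 were lower in both strains, and Lta, Ccr7 and Cd40 in Sle2c1 mice. Of 15 macrophage markers, 2 were higher (among them Cd14) and 5 lower in B1a cells of Sle2c1 mice. In B6 mice 9 of them were higher (Cd14 again) and 2 lower. Of 7 mast cell markers, 3 were higher and 0 lower in Sle2c1 mice, and 6 higher and 0 lower in B6 mice. Among these, Hdc was higher by at least 1.65 in Sle2c1 mice and by 1.53 in B6 mice. The part of such cells in the target gene values was not tested.

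In B1a cells 3 target genes were lower in Sle2c1 than in B6 mice and 0 were higher, of 35. Il6 scored 1.44, 1.15, 0.73 and 1.33 in Sle2c1 B1a, against 2.11, 1.92, 2.41 and 2.64 in B6 B1a (difference -1.11, adjusted p = 0.00234). Gadd45b, a stress response gene, scored 2.51, 2.51, 2.52 and 2.32 in Sle2c1 B1a, against 2.90, 2.66, 2.88 and 2.82 in B6 B1a (difference -0.35, adjusted p = 0.012). Cxcl1 scored 1.97, 1.45 and 1.88 in Sle2c1 B1a with replicate 3 at the floor, against 2.41, 2.61, 2.96 and 3.22 in B6 B1a (difference -1.35, adjusted p = 0.0146). The groups did not overlap for these 3 genes, where 4.15% of all features did not overlap on the lower side. Of the 18 member probe sets, 2 did not overlap either, Nfkbia 1420088_at and Nfkbiz 1457404_at, both lower in Sle2c1 B1a without a call. Neither of these probe sets stands for its gene, and no share over all probe sets is given beside them. The comparison shares its B6 B1a arrays with that of B1a and Bs cells in B6 mice. Those arrays carried more macrophage marker signal, of which 7 of 15 markers were lower in Sle2c1 B1a where 1.45% of all features were. T cell markers averaged 1.19 in Sle2c1 B1a and 1.55 in B6 B1a, with 1 of 9 lower, and mast cell markers averaged 1.27 in Sle2c1 B1a and 1.58 in B6 B1a, with 0 of 7 lower. The part of these cells in the target gene differences was not tested.

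**Figure D4:**
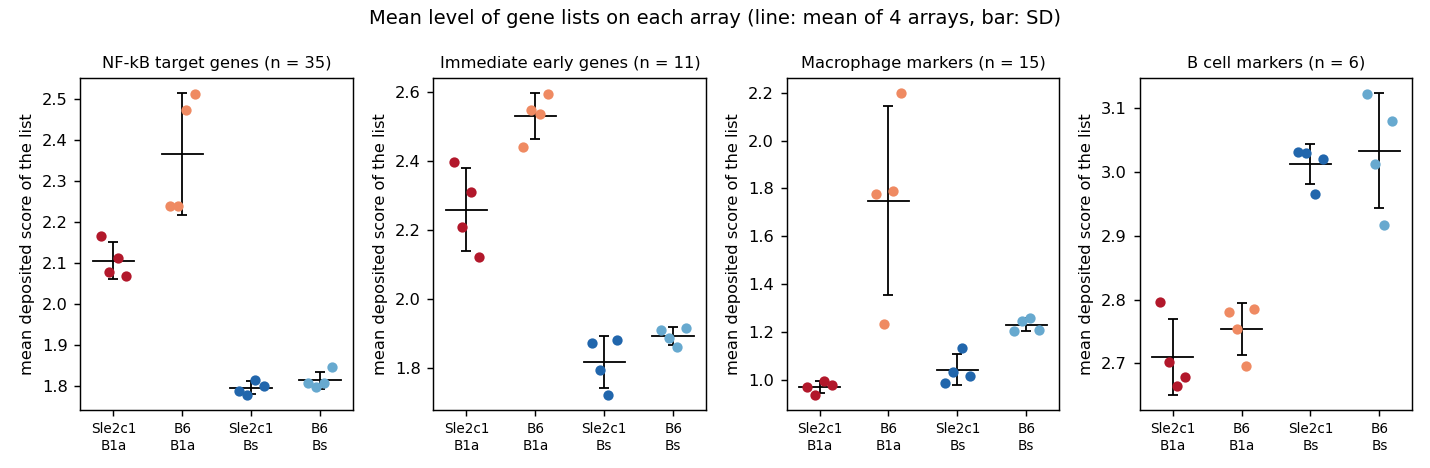
Mean deposited score (y axis, a separate range in each panel) of the tested NF-kB target genes, immediate early genes, macrophage markers and B cell markers on the 4 arrays of each group (points), with the group mean (line) and SD (bar). The target genes average 2.07 to 2.17 in Sle2c1 B1a and 2.24 to 2.51 in B6 B1a, and the macrophage markers are highest on average and most spread in B6 B1a.

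Read across its panels, the plot of list means has the highest target gene averages on replicates 3 and 4 of B6 B1a, at 2.47 and 2.51. These arrays were also the highest in Tnfaip3 and Nfkbiz by the probe sets that stand for these genes. Within B6 B1a the same arrays were highest in Cd14 (2.67, 2.41, 3.15 and 3.35 on replicates 1 to 4). They were also highest in the average of 6 neutrophil markers (1.41, 1.63, 1.95 and 1.85). Cd14 is 1 of 15 macrophage markers, which averaged 1.78, 1.23, 1.79 and 2.20 there, so replicates 1 and 3 were about level. Single markers ran both ways between replicates 1 and 3. Timd4 (2.43 and 2.16) and Adgre1 (2.49 and 2.35) were higher on replicate 1, and C1qa (0.83 and 1.13) and Cd68 (1.32 and 1.64) on replicate 3. The part of macrophages and neutrophils in these values was not tested. Target genes averaged 1.78 to 1.82 in Sle2c1 Bs and 1.80 to 1.85 in B6 Bs. Immediate early genes (11 tested), which respond to handling and to receptor signals, averaged 2.12 to 2.40 in Sle2c1 B1a and 2.44 to 2.60 in B6 B1a, against 1.72 to 1.88 in Sle2c1 Bs and 1.86 to 1.92 in B6 Bs. Of the 11, 5 were higher and 0 lower in B1a cells of Sle2c1 mice (11% and 14.7% of all features) and 7 higher and 0 lower in those of B6 mice (9.02% and 12.2%), and what they share with the members' values was not tested.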

How the data were processed

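RNA of 16 samples, 4 in each group, was amplified, labelled with biotin and hybridised to Affymetrix arrays, per the labels' protocols. The authors deposited a single table with a score for each of 45101 probe sets (64 of them controls) on each array. How that score was normalised is not given in the sources used here, and it does not behave like log2, although log values had been assumed in the plan. No counts underlie it, so the number of arrays limits the precision. Kept were 35032 probe sets that exceeded the 40th percentile of the array on 4 or more arrays. Scores below 0.495 were raised to 0.495. A gene with several probe sets was represented by the one of highest mean. Names came from the platform annotation, updated by Entrez identifier (99.42% matched).

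The 4 group means were fitted with limma 3.58.1 in R 4.3.3, two-sided, with Benjamini-Hochberg adjustment over 22727 features, and single genes by exact permutation of 4 against 4 arrays. Each probe set was also fitted on its own over all 35032. The code was tested on simulated data. The members and all lists, which come from textbook knowledge, were chosen with earlier results of these data known. Genes outside the members were named when listed and past the threshold, or as the 3 nearest patterns. Same-numbered arrays of the 2 Bs groups deviated together (correlations 0.387, 0.112, 0.621 and 0.431), those of the 2 B1a groups did not (-0.0111 to 0.167). Promoter windows are from RefSeq, build GRCm38.p6. Alternatives were other filters, floors, scalings, probe set rules, weights, blocks and left-out arrays.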

Additional observations from a re-analysis of the deposited data

Results flagged for a closer look

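Of 72 sets of 4 arrays (18 member probe sets in 4 groups), 10 held an array far from the other 3. The cut used would flag about 1 in 20 sets of independent, unrounded values. Scores here are floored and rounded, and probe sets share arrays, so the number flagged cannot be set against that share. Among well measured probe sets, replicate 4 of B6 B1a was at 3.98 for Nfkbia 1420088_at against 3.88 on the others, and replicate 1 of B6 B1a was at 3.03 for Nfkbie 1458299_s_at against 2.87 to 2.88. Replicate 2 of Sle2c1 B1a was at 2.79 for Nfkbiz 1417483_at against 2.91 to 2.93, and replicate 4 of B6 Bs was at 2.97 for Nfkbiz 1457404_at against 2.84 to 2.86. Replicate 3 of Sle2c1 Bs was at 2.05 for Tnfaip3 1433699_at against 2.12 to 2.13. The other 5 lay in probe sets near the floor of 0.495. Nfkb2 1429128_x_at was at 1.41 on replicate 2 of Sle2c1 B1a and at 1.81 on replicate 3 of B6 Bs, and Nfkbiz 1448728_a_at was at 0.97 on replicate 1 of B6 Bs. Tnfaip3 1450829_at was at 1.28 on replicate 4 of Sle2c1 B1a and at 0.66 on replicate 4 of Sle2c1 Bs. No member's strain difference was shown to differ between the cell types.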

How the results depend on the processing

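Of 1134 repeats of a member's difference under an alternative, 1108 kept their side of the threshold (the sign turned in 35 differences without a call), 17 lost a call, 9 gained one and 0 called differences reversed. Most of these differences had no call to lose, so the total says little about how stable the calls are. In B1a against Bs cells of Sle2c1 mice, Nfkb2 kept its call in 11 of 24 alternatives and Rel in 21. In B6 mice Nfkbiz kept its call in 23 of 24. Bcl3 and Rela were called higher in B1a cells of both strains in all 24 alternatives each. The number of members called in B1a against Bs cells of B6 mice was 3, and 5 with array weights, which added Rel (adjusted p = 0.0365) and Nfkbia (0.0498). In Sle2c1 mice it was 4, and 2 without the 4 arrays in doubt and 2 to 4 with single arrays left out. In Sle2c1 against B6 B1a cells it was 0, and 1 with the mean of a gene's probe sets (Nfkbiz). Nfkbia in B1a against Bs cells of Sle2c1 mice passed with array weights (adjusted p = 0.0399), a floor of 1 (0.0444), the replicate block within each cell type (0.0411) and a trended, robust fit (0.016). Rel lost its call with median centring (0.196).

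The number of features called in B1a against Bs cells of B6 mice was 4833, and 10442 with array weights. In Sle2c1 against B6 B1a cells it was 768, and 1272 at a threshold of 0.10, 1233 with array weights, 1231 over every probe set, 455 without the floor and 371 with only the 8 arrays compared. In Bs cells it was 35, and 387 with array weights, 23 with a floor of 1, 17 with median centring, 16 with quantile normalization and 22 to 63 with single arrays left out. For the interaction it was 98, and 160 at 0.10, 314 with array weights, 162 over every probe set, 25 with a filter on 8 arrays, 43 with median centring, 10 with a trended, robust fit, and 48 to 183 with single arrays left out. The replicate block within each cell type gave 45 for the interaction, took away the Nfkb2 call in Sle2c1 mice (adjusted p = 0.0681) and changed no other member's call than Nfkb2 and Nfkbia. The cause of these changes was not tested.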
